A study of Mus musculus with 9 samples.

Results

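The 39 genes described here belong to the integrated stress response and to the serine, one-carbon and amino acid enzymes that its transcription factor ATF4 is known to control. They were chosen by gene symbol and comprise 5 genes of the eIF2 kinases, eIF2α and translation block, 6 transcription factors, 7 phosphatase subunits and stress effectors, 8 genes of serine synthesis and the folate cycle, 4 enzymes of asparagine, alanine and transsulfuration metabolism, and 9 cytosolic tRNA synthetases. All 39 were found among the 22048 genes of the count table, and 36 of them passed the filter on low counts, among 9739 genes tested. Eif2ak4, Shmt1 and Cth did not pass and are given by their counts only.

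Pancreatic islets of ICR mice, an outbred stock that the series calls wild type, were kept in culture for 3 days at 1 of 3 glucose concentrations, with 3 libraries each. The 11.8 mM group was the control and had the glucose of ordinary RPMI medium, which in all groups carried fetal bovine serum and antibiotics. The 20 mM and 35 mM groups had more glucose, and the question was how high and extreme glucose change the expression program of islet cells. The sample titles give the highest concentration as 35 mM and the treatment text gives it as 25 mM. It is called 35 mM here, as in the titles. The labels name 9 mice in all and do not say whether each library came from its own mouse, and every p-value below therefore rests on the spread of libraries alone, which may be technical. The labels mention no osmotic control, and none was analysed here.

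The integrated stress response begins with kinases that sense ER stress, amino acid shortage or heme loss and phosphorylate the translation factor eIF2α. General translation then slows while the mRNA of ATF4 is translated better, and ATF4 raises the transcription of genes for amino acid uptake, serine and asparagine synthesis, tRNA charging and stress effectors such as CHOP. In beta cells, which make large amounts of proinsulin, the ER-resident kinase PERK is known to be needed for survival, and serine made from a glycolytic intermediate feeds the folate cycle.

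ATF4 binds DNA as a dimer with C/EBP proteins at a composite element, here searched as TGATGNAAN on both strands (reverse complement NTTNCATCA) in 300 bases of each RefSeq promoter, 250 before the start and 50 from the start on. No other motif was searched. Of the 39 genes, 33 had a promoter in the RefSeq table, and 9 of these 33 (27.3%) held the element, against 1215 of all 27025 genes of that table (4.5%). Eif4ebp1, Ppp1r15b, Cth, Nars, Wars and Lars had none in the table. The list was drawn from genes tied to ATF4, so the higher share may follow from that choice and is no result of these data. The 9 matches are shown because ATF4 is known for binding this element. A gene was counted as holding the element if any of its promoters in the table did. By role, these genes were 3 of 6 phosphatase subunits and stress effectors, 4 of 6 tRNA synthetases and 1 of 6 transcription factors. They were also 1 of 3 asparagine, alanine and transsulfuration enzymes, 0 of 4 kinases and translation genes and 0 of 8 serine and folate genes. Each is printed 5′ to 3′ on the strand of the gene (RefSeq, GRCm38.p6), with the matched bases in capitals:
Nupr1 (chr7:126625563-126625591, minus strand): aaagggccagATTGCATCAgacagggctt
Trib3 (chr2:152344029-152344057, minus strand): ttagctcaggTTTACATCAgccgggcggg
Chac1 (chr2:119351038-119351066, plus strand): cttccctgccGTTGCATCActcctgccag
Vldlr (chr19:27216809-27216837, plus strand): agcagcaataGTTGCATCAgcgctcctag
Asns (chr6:7693214-7693242, minus strand): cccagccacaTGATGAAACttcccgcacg
Gars (chr6:55037960-55037988, plus strand): tggctgcgctATTTCATCAtgcaccgggc
Yars (chr4:129189896-129189924, plus strand): cgagctcagcTGATGCAACccgacgggac
Iars (chr13:49682126-49682154, plus strand): cactgtcagtATTGCATCAcctccagacg
Tars (chr15:11399656-11399684, minus strand): caggagtcccGTTGCATCAgctggttagc
The first matched base lay between position -201 (Vldlr) and position 14 (Trib3), counted from the first transcribed base as position 1. For contrast, the 250 bases before the start of Phgdh and of Shmt2 are also printed. Among the 39 genes these had the smallest p-values at 35 against 11.8 mM. Both windows held no match in either orientation and therefore have no capitals:
Phgdh (chr3:98339970-98340219, minus strand): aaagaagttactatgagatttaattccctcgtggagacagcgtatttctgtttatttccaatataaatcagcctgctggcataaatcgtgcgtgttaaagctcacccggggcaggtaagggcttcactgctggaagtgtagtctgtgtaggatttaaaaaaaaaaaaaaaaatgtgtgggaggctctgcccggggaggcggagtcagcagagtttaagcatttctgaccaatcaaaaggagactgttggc
Shmt2 (chr10:127522445-127522694, minus strand): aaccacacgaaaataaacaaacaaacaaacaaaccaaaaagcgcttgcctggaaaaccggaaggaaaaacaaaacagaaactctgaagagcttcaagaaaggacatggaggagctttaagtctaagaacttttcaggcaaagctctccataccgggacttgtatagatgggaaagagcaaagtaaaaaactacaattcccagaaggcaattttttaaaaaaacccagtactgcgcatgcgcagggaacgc
A match describes the letters in the window and not a bound site, and a missing match says only that these letters are not in this window.

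The libraries held 3228648 to 4559561 gene counts and between 13366 and 13923 genes with a count. The 8 beta cell markers, led by the insulin genes, made up 51.0 to 58.9% of gene counts at 11.8 mM, 50.5 to 55.4% at 20 mM and 52.1 to 56.5% at 35 mM, so the main cell type of islets was present in every library. The 6 alpha cell markers made up 1.41 to 2.03% over all libraries and the 19 acinar markers 0.389 to 1.45%. In such bulk RNA, fewer cells of a type and less RNA per cell cannot be told apart. At 35 against 11.8 mM, markers of several other cell types lay mostly on one side of 0. All 3 endothelial markers tested were below 0 there (median log2 fold change -0.95), as were 6 of 7 stellate and fibroblast markers (median -0.45), 5 of 6 alpha cell markers (median -0.22) and 2 of 3 delta cell markers (median -0.32). Of the ductal markers 5 of 7 were above 0 (median 0.28), of the acinar markers 13 of 18 (median 0.12) and of the beta cell markers 5 of 8 (median 0.05). Of all these, edgeR called 1 beta and 1 alpha cell marker higher and 0 lower. The 6 endothelial markers summed to 0.000919 to 0.00115% of gene counts at 35 mM, against 0.00148 to 0.00167% at 11.8 mM. Of the 9 macrophage and immune markers tested, 7 were below 0 at 35 against 11.8 mM, with a median log2 fold change of -0.44 and 0 called, while their summed share was 0.00913 to 0.0179% at 35 mM, against 0.0119 to 0.0152% at 11.8 mM. The part of these cell populations in the values that follow was not tested.

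Levels are in CPM, here gene counts scaled to a common library size by TMM, which for 3′ tags do not grow with transcript length. Atf4 was the highest of the members. It averaged 525 CPM over the 9 libraries and lay at percentile 99.2 of all genes tested. Atf5, a relative of Atf4, averaged 334 CPM, and Gars, the glycyl-tRNA synthetase gene, 199.6 CPM. Of the 36 tested members, 28 averaged over 10 CPM and 6 over 100 CPM, and their median was 21.9 CPM, against 11.9 CPM for all genes tested. Among the serine enzymes Psat1 (89.6 CPM) and Shmt2 (70.6 CPM) were several times higher than Psph (16.8 CPM) and Phgdh (11.0 CPM), the first enzyme of the pathway. Ddit3 (5.08 CPM), which encodes the proapoptotic factor CHOP, Trib3 (6.28 CPM) and Ppp1r15a (7.75 CPM) were low in every library. The lowest tested member was Stc2, a secreted glycoprotein gene, with 4 to 20 counts per library. The members below the filter were lower still, with 4 to 11 counts per library for Eif2ak4 (the amino acid sensing kinase GCN2), 0 to 4 for Shmt1 (cytosolic serine hydroxymethyltransferase) and 0 to 5 for Cth (cystathionine γ-lyase).

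**Figure D1:**
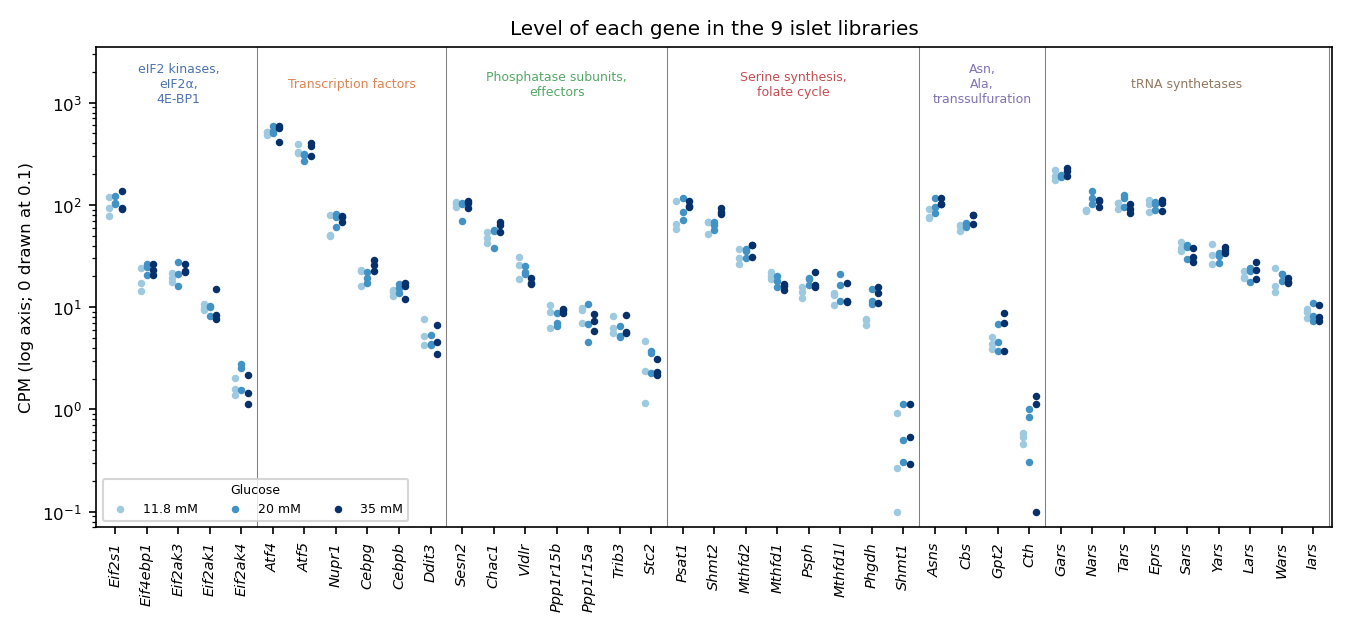
Level of each of the 39 genes in CPM (log axis, values of 0 drawn at 0.1) in each of the 9 islet libraries, grouped by role and shaded by glucose concentration from 11.8 to 35 mM. Atf4 and Atf5 stand above all other members, Shmt1, Cth and Eif2ak4 lie lowest, and for most genes the 3 concentrations overlap.

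Islets at 35 mM were set against those at 11.8 mM to ask what extreme glucose does to this response. The serine and asparagine synthesis genes had higher means at 35 mM, led by Phgdh with a mean of 13.4 CPM at 35 mM and 7.21 CPM at 11.8 mM. Of the 6 transcription factors, 5 were above 0, with log2 fold changes of 0.04 for Atf4, 0.33 for Cebpg and -0.24 for Ddit3. Among the stress effectors, Trib3 had a log2 fold change of -0.03 and Chac1 of 0.37. Whether these differ from the serine genes was not tested. No single member passed the test: 0 of 36 were called at an adjusted p under 0.05 by the quasi-likelihood test of edgeR, with Benjamini-Hochberg adjustment over all 9739 genes, which called 0.863% of all genes. DESeq2 also called 0. At an unadjusted p under 0.05, 5 members were higher (Phgdh, Shmt2, Asns, Chac1 and Cbs) and 1 was lower (Vldlr), against 5.63% of all genes higher and 4.89% lower.

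Over the 36 tested members the median log2 fold change was 0.12, against -0.00 over all genes tested, and 26 of 36 (72.2%) were above 0, against 49.6% of all genes. For 8 of 36 members (22.2%) the 35 mM libraries were fully separate from the controls, against 14.9% of all genes. Phgdh, Psph, Shmt2, Asns, Cbs, Nars and Eif2ak3 (7 members) lay wholly higher at 35 mM, against 8.22% of all genes, and Mthfd1 wholly lower, against 6.69%. By role, the median was 0.37 for the 7 tested serine and folate genes, 0.41 for the 3 asparagine, alanine and transsulfuration genes, 0.21 for the 4 genes around eIF2α, 0.08 for the 6 transcription factors, 0.01 for the 9 tRNA synthetases and -0.03 for the 7 phosphatase subunits and effectors. For 33 of 36 members the 95% interval left out a 2-fold change in either direction. Phgdh, Gpt2 and Stc2 were the exceptions.

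**Figure D2:**
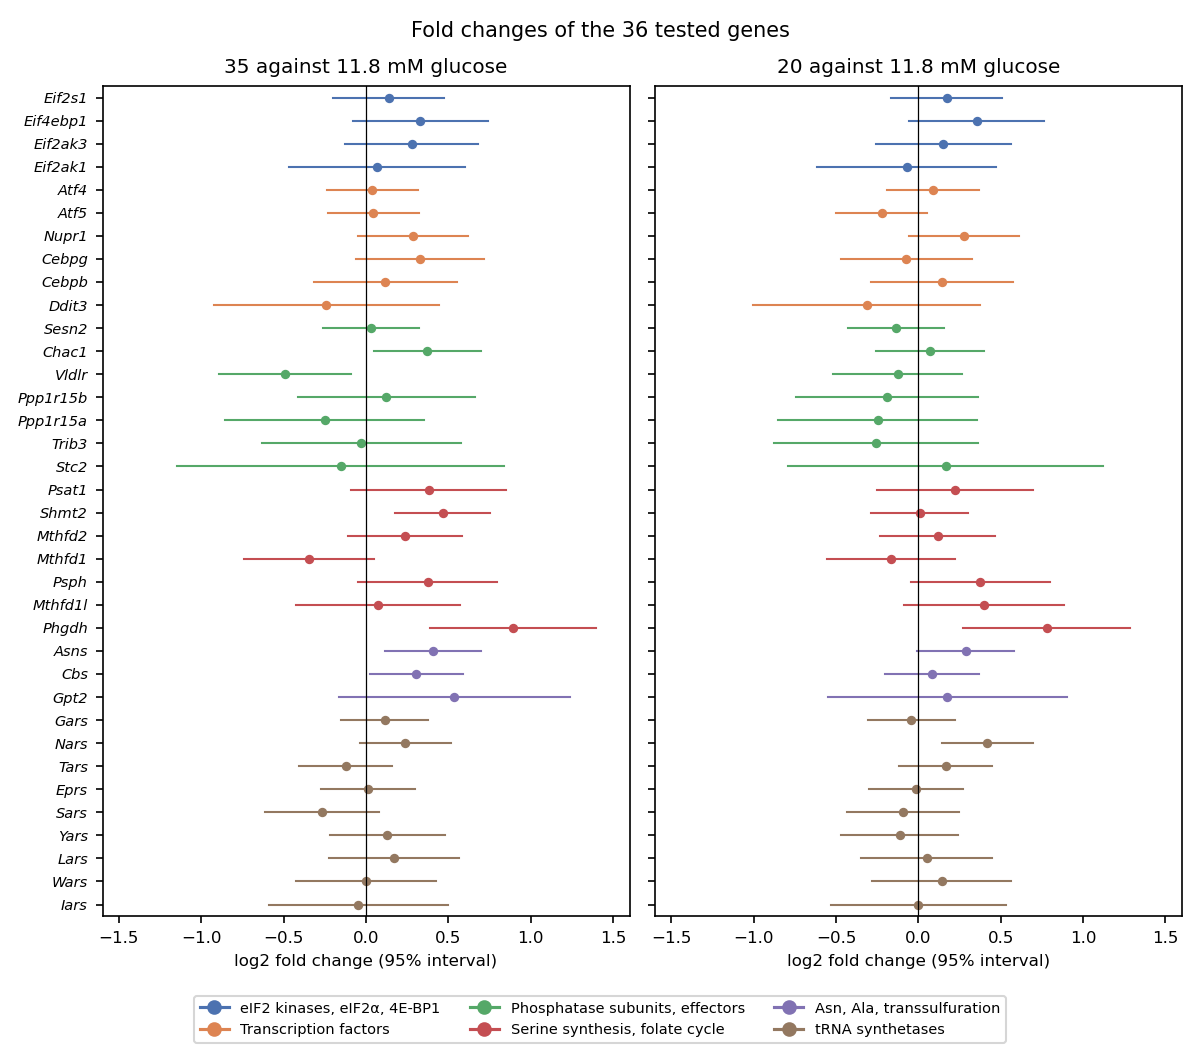
Log2 fold change (points) with its 95% interval (bars) for each of the 36 tested genes, coloured by role, at 35 against 11.8 mM glucose on the left and 20 against 11.8 mM on the right. Phgdh lies farthest to the right in both panels, at 0.89 and 0.78, and Vldlr farthest to the left at 35 mM, at -0.49.

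**Figure D3:**
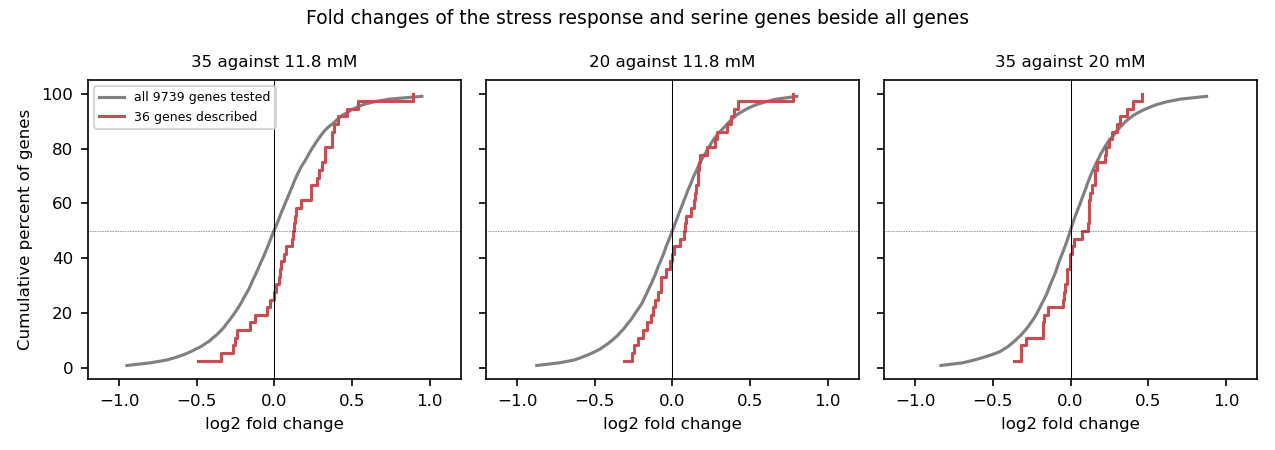
Cumulative percent of genes (vertical axis) by log2 fold change (horizontal axis) for the 36 genes described (red) and all 9739 genes tested (grey, from the 1st to the 99th percentile) in each of the 3 comparisons. The red line is shifted to the right of the grey one near the middle, with medians of 0.12, 0.08 and 0.09, and the comparisons share libraries.

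Among the serine enzymes, Phgdh (chr3:98313170-98339990, minus strand, GRCm38) encodes phosphoglycerate dehydrogenase, which draws 3-phosphoglycerate out of glycolysis. It measured 6.66, 7.41 and 7.57 CPM at 11.8 mM, 11.4, 14.9 and 10.7 CPM at 20 mM and 11.0, 15.7 and 13.6 CPM at 35 mM. All 6 libraries above 11.8 mM were higher than each control library, and the 20 and 35 mM libraries overlapped. At 35 against 11.8 mM the log2 fold change was 0.89 (95% interval 0.39 to 1.40), a 1.85-fold difference, with an adjusted p of 0.0879 (edgeR's quasi-likelihood test, rank 119 of 9739 genes). At 20 against 11.8 mM it was 0.78 (95% interval 0.27 to 1.29) with an adjusted p of 0.304 in the same edgeR test. The counts behind these levels were few, 25 to 59 per library, and the annotation lists a pseudogene, Phgdh-ps1, whose reads could have been counted with it or lost.

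Psat1, the phosphoserine aminotransferase gene of the next step (chr19:15904678-15947337, minus strand), measured 108, 65.7 and 58.3 CPM at 11.8 mM, 117, 84.4 and 70.5 CPM at 20 mM and 95.8, 97.3 and 109 CPM at 35 mM. Replicate 1 of 11.8 mM stood high within its group, as did replicate 1 of 20 mM, and the groups overlapped. The 3 sub-libraries of that 11.8 mM sample gave 103, 141 and 121 CPM, against 49.9 to 74.5 CPM in the sub-libraries of the other 11.8 mM samples. These sub-library values were scaled to each sub-library's own gene counts without TMM, so they are not on the scale of the library values. The log2 fold change at 35 against 11.8 mM was 0.38 (95% interval -0.09 to 0.85), adjusted p = 0.605 (edgeR). Over the fits that left out 1 library it ranged from 0.21, without 11.8 mM replicate 3, to 0.70, without 11.8 mM replicate 1, with an adjusted p of 0.0273 at the upper end in edgeR's test. The adjusted p ran from 0.0273 to 0.857 over the 18 alternatives.

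Psph, phosphoserine phosphatase, which releases free serine, measured 12.3, 15.7 and 14.0 CPM at 11.8 mM, 18.8, 19.5 and 16.4 CPM at 20 mM and 22.0, 16.5 and 15.9 CPM at 35 mM. Every library at 20 and 35 mM exceeded every control library, although 35 mM replicate 3 did so by a small margin, and the log2 fold changes were 0.38 ± 0.21 (SE) at 20 mM and 0.37 ± 0.21 at 35 mM. Its adjusted p was 0.678 at 20 mM and 0.559 at 35 mM in edgeR's test. Psph shares exon sequence with Cct6a on the opposite strand, and whether the counting used strand is not given in the sources used here.

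Shmt2 (chr10:127517123-127522444, minus strand) encodes the mitochondrial enzyme that splits serine into glycine and a one-carbon unit. Its libraries held 67.4, 67.8 and 52.1 CPM at 11.8 mM, 57.0, 68.0 and 63.5 CPM at 20 mM and 84.3, 93.5 and 81.5 CPM at 35 mM. The 20 mM libraries overlapped the controls, whereas all 3 libraries at 35 mM lay above all 6 others. At 35 against 11.8 mM the log2 fold change was 0.47 (95% interval 0.18 to 0.75), adjusted p = 0.142, and at 35 against 20 mM it was 0.46 (95% interval 0.17 to 0.75), adjusted p = 0.817, both by edgeR. At 20 against 11.8 mM it was 0.01. Phgdh was thus higher already at 20 mM in its point estimate and Shmt2 was not, and the difference between these patterns was not tested. Shmt2 overlaps an exon of Ndufa4l2 on the opposite strand, which itself had 3.51 CPM at 35 mM and 2.82 CPM at 11.8 mM.

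The folate enzymes downstream had values in both directions. Mthfd2, the mitochondrial methylene-tetrahydrofolate dehydrogenase that ATF4 is known to induce, measured 37.3, 30.6 and 26.5 CPM at 11.8 mM, 30.2, 36.9 and 35.3 CPM at 20 mM and 40.3, 40.4 and 30.7 CPM at 35 mM. Its groups overlapped and the log2 fold change at 35 against 11.8 mM was 0.24 (95% interval -0.11 to 0.58). Mthfd1, its cytosolic counterpart, averaged 16.0 ± 1.09 CPM at 35 mM and 20.3 ± 1.74 CPM at 11.8 mM (SD, n = 3 each). Its libraries at 35 mM were all below those at 11.8 mM, with a log2 fold change of -0.35 (95% interval -0.74 to 0.05) and an adjusted p of 0.566 (edgeR). Mthfd1l, the mitochondrial formate producer, had log2 fold changes of 0.07 at 35 mM and 0.40 at 20 mM.

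Asns, asparagine synthetase and a long-known ATF4 target whose promoter carries the element at position -23, measured 91.7, 75.0 and 75.5 CPM at 11.8 mM, 117, 95.5 and 82.9 CPM at 20 mM and 117, 102 and 102 CPM at 35 mM. The 3 libraries at 35 mM were all above the 3 controls, while those at 20 mM overlapped both. The log2 fold change was 0.41 (95% interval 0.11 to 0.70) at 35 mM with an adjusted p of 0.258, and 0.29 (95% interval -0.01 to 0.58) at 20 mM with an adjusted p of 0.634 (edgeR). With 1 library left out, the value at 20 mM ranged from 0.14, without 20 mM replicate 1, to 0.40, without 20 mM replicate 3. Cbs, cystathionine β-synthase, which joins serine to homocysteine, averaged 74.8 ± 8.53 CPM at 35 mM and 60.4 ± 4.64 CPM at 11.8 mM (SD, n = 3 each), without overlap, and had a log2 fold change of 0.31 and an adjusted p of 0.431 by edgeR. Gpt2, the mitochondrial alanine aminotransferase gene, was low, with 12 to 30 counts per library, and its log2 fold change of 0.54 (95% interval -0.17 to 1.24) was the widest of these estimates.

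**Figure D4:**
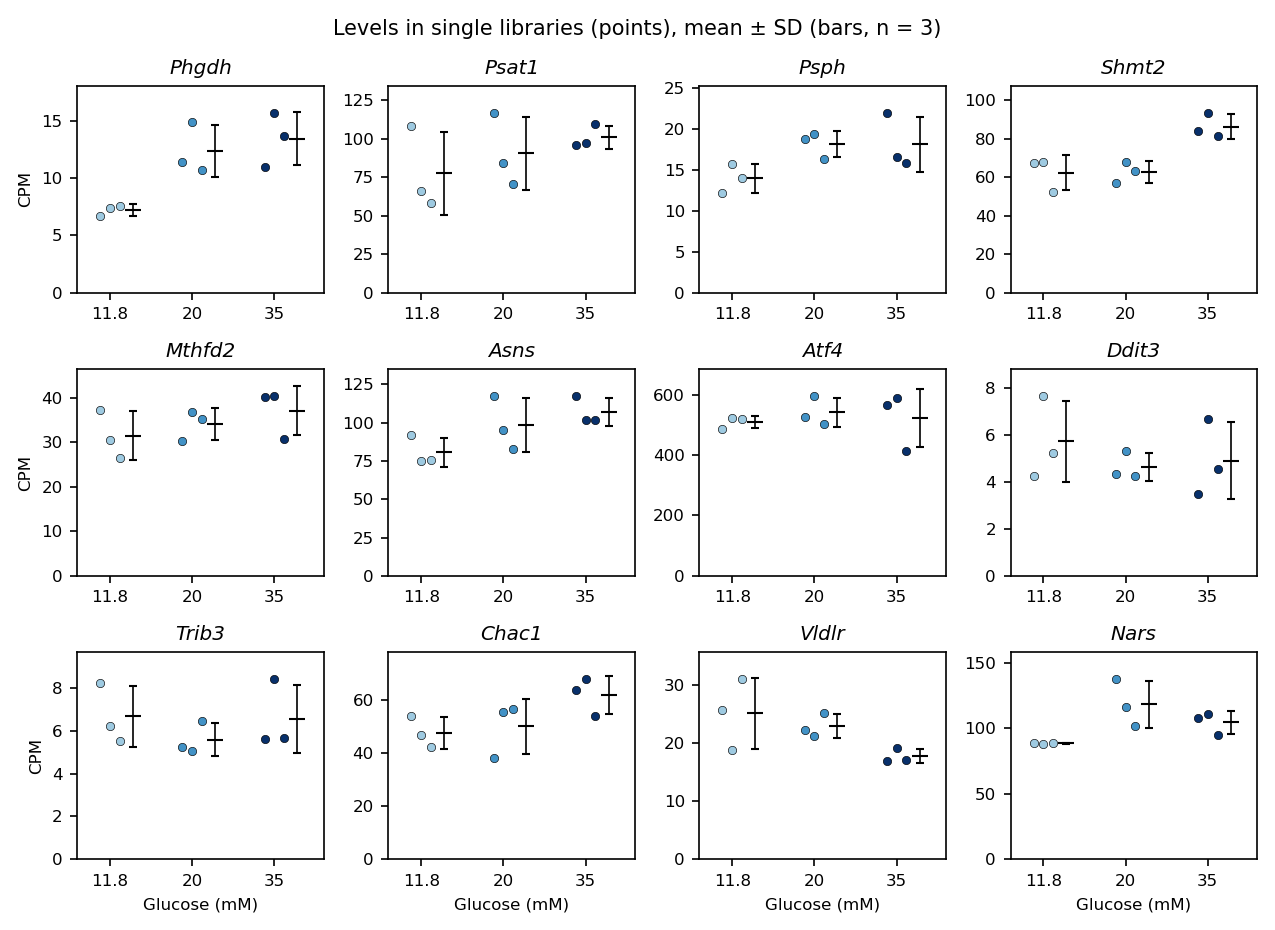
CPM in each library (points) with the mean and SD of the 3 libraries (bars) at 11.8, 20 and 35 mM glucose for 12 of the genes described, each panel starting at 0. Phgdh is higher at both raised concentrations, all 3 libraries of Shmt2 at 35 mM lie above the others, and Atf4, Ddit3 and Trib3 overlap throughout.

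Upstream, the sensors and eIF2α itself had small differences. Eif2ak3, which encodes PERK, averaged 23.6 ± 2.46 CPM at 35 mM and 19.4 ± 2.03 CPM at 11.8 mM (SD, n = 3 each), and its libraries did not overlap, with a log2 fold change of 0.28 (95% interval -0.13 to 0.68). Log2 fold changes were 0.14 for Eif2s1 (eIF2α) and 0.06 for Eif2ak1 (the heme-regulated kinase), both with overlapping libraries. Eif4ebp1, a repressor of cap-dependent translation and an ATF4 target in beta cells, measured 24.3, 17.1 and 14.3 CPM at 11.8 mM, 26.2, 24.5 and 20.6 CPM at 20 mM and 20.7, 26.4 and 23.0 CPM at 35 mM. Replicate 1 of 11.8 mM lay among the treated libraries, so the groups overlapped. Its log2 fold changes were 0.35 at 20 mM and 0.33 at 35 mM, with adjusted p-values of 0.694 and 0.618 in edgeR's test. With 1 library left out, the value at 20 mM ranged from 0.20, without 11.8 mM replicate 3, to 0.59, without 11.8 mM replicate 1. These RNA levels say nothing of eIF2α phosphorylation or of ATF4 protein, which were not measured.

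Atf4 mRNA measured 487, 522 and 520.0 CPM at 11.8 mM, 527, 595 and 503 CPM at 20 mM and 568, 589 and 413 CPM at 35 mM. The lowest and the second highest value both came from 35 mM, and the log2 fold changes were 0.04 (95% interval -0.24 to 0.31) at 35 mM and 0.09 (95% interval -0.19 to 0.37) at 20 mM. Ddit3 measured 4.26, 7.64 and 5.24 CPM at 11.8 mM, 4.31, 5.31 and 4.23 CPM at 20 mM and 3.49, 6.68 and 4.55 CPM at 35 mM, from 13 to 33 counts per library, with overlapping groups and a log2 fold change of -0.24 (95% interval -0.93 to 0.44) at 35 mM. Its exons overlap those of Mars on the opposite strand, which had 41.4 CPM at 35 mM and 38.2 CPM at 11.8 mM, several times the level of Ddit3 itself. On the same strand they overlap another annotated gene, also named Ddit3, that has no counts of its own here. Whether reads of Ddit3 were lost to either overlap was not tested. Of the remaining factors, Nupr1, a small stress-induced chromatin protein gene, had a log2 fold change of 0.28 and Cebpb one of 0.12 at 35 mM.

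Cebpg, a dimer partner of ATF4, measured 22.7, 16.0 and 23.3 CPM at 11.8 mM, 17.2, 19.2 and 22.0 CPM at 20 mM and 22.8, 28.7 and 25.8 CPM at 35 mM. Its libraries at 35 mM were all above those at 20 mM and overlapped those at 11.8 mM. At 35 against 20 mM the log2 fold change was 0.40 (95% interval 0.01 to 0.79), adjusted p = 0.932 (edgeR). Atf5 measured 389.6, 332 and 318 CPM at 11.8 mM, 266, 317 and 309 CPM at 20 mM and 401, 373 and 299.7 CPM at 35 mM. All 3 libraries at 20 mM were below all 3 at 11.8 mM, and the log2 fold changes were -0.22 (95% interval -0.50 to 0.05) at 20 against 11.8 mM and 0.27 (95% interval -0.01 to 0.54) at 35 against 20 mM. Both genes overlap other annotated transcripts on the opposite strand, and Cebpg also overlaps another gene on the same strand.

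The effectors split in direction. Chac1, which degrades glutathione, measured 54.1, 47.0 and 42.2 CPM at 11.8 mM, 38.2, 55.6 and 56.7 CPM at 20 mM and 63.9, 67.9 and 54.0 CPM at 35 mM. The 35 mM libraries were higher than the controls except that 1 of them, replicate 3, fell just under the highest control, and the log2 fold change was 0.37 (95% interval 0.05 to 0.70) with an adjusted p of 0.387 in edgeR's test. Vldlr, a lipoprotein receptor gene known as an ATF4 target, measured 25.6, 18.7 and 30.9 CPM at 11.8 mM, 22.2, 21.2 and 25.1 CPM at 20 mM and 16.9, 19.2 and 17.0 CPM at 35 mM. It was lower at 35 mM, where 1 library overlapped the lowest control, with a log2 fold change of -0.49 (95% interval -0.89 to -0.09) and an adjusted p of 0.342 (edgeR). Both carry the composite element, Chac1 in its only RefSeq promoter and Vldlr in 1 of its 2.

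Trib3, the pseudokinase gene that CHOP and ATF4 induce, measured 8.26, 6.25 and 5.54 CPM at 11.8 mM, 5.23, 5.05 and 6.49 CPM at 20 mM and 5.63, 8.42 and 5.68 CPM at 35 mM, or 17 to 31 counts per library. The groups overlapped and the log2 fold change at 35 mM was -0.03 (95% interval -0.63 to 0.58). Ppp1r15a, the inducible eIF2α phosphatase subunit GADD34, had a log2 fold change of -0.25 at 35 mM, and Ppp1r15b, the constitutive one, 0.12. Sesn2, an inhibitor of mTORC1, averaged 103 ± 8.25 CPM at 35 mM and 101 ± 5.57 CPM at 11.8 mM (SD, n = 3 each).

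The 9 tRNA synthetase genes had log2 fold changes between -0.26 and 0.24 at 35 against 11.8 mM, 5 above 0 and 4 below. Nars, the asparaginyl-tRNA synthetase gene, measured 89.0, 88.0 and 88.6 CPM at 11.8 mM, 137, 116 and 102 CPM at 20 mM and 108, 111 and 94.6 CPM at 35 mM. Its 3 control libraries were nearly equal and lay below all 6 others. It had the second smallest p-value of the members at 20 against 11.8 mM, with a log2 fold change of 0.42 (95% interval 0.14 to 0.70) and an adjusted p of 0.317 in edgeR's test. At 35 mM the log2 fold change was 0.24 (95% interval -0.04 to 0.52). Tars, the threonyl-tRNA synthetase gene, measured 90.6, 105 and 105 CPM at 11.8 mM, 125, 117 and 95.6 CPM at 20 mM and 90.4, 102 and 83.5 CPM at 35 mM and was highest at 20 mM in the mean. At 35 against 20 mM its log2 fold change was -0.29 (95% interval -0.57 to -0.00), with overlapping libraries and an adjusted p of 0.932 (edgeR).

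Members with and without the promoter element are set side by side here without a test. At 35 against 11.8 mM the 9 genes with the element had a median log2 fold change of 0.11, with 5 of 9 above 0, and the 22 tested genes with a promoter but no element had a median of 0.10, with 17 of 22 above 0. At 20 against 11.8 mM the medians were -0.00 and 0.09. The gene with the largest value in both comparisons, Phgdh, was among those without it.

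Beyond the 39 genes, 2 other ATF4-linked genes did pass the test at 35 against 11.8 mM. Pycr1, the mitochondrial enzyme of the last step of proline synthesis (chr11:120635712-120643769, minus strand), measured 29.6, 24.1 and 22.1 CPM at 11.8 mM, 41.0, 38.2 and 44.8 CPM at 20 mM and 48.0, 49.1 and 49.1 CPM at 35 mM. It rose at 35 mM with no overlap, by a log2 fold change of 0.95 (95% interval 0.62 to 1.27) and an adjusted p of 0.000844 (edgeR's quasi-likelihood test). Slc7a3, a cationic amino acid transporter gene, measured 8.26, 6.48 and 6.99 CPM at 11.8 mM, 14.2, 9.60 and 12.7 CPM at 20 mM and 23.1, 21.2 and 14.2 CPM at 35 mM and rose at 35 mM by 1.43 (95% interval 0.93 to 1.92) on the log2 scale, adjusted p = 0.000926 (edgeR). Both stayed called at 35 against 11.8 mM under all 18 alternatives.

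Those 2 genes came from a list of 25 other ATF4-linked genes, of which 23 were tested: 2 were called higher and 0 lower, against 0.863% of all genes called. This list too was chosen with earlier results of these data known, so its shares are a description and not a test. At an unadjusted p under 0.05, 6 of 23 were higher and 0 lower, against 5.63% of all genes higher. The median log2 fold change was 0.12, with 16 of 23 above 0, against 49.6% of all genes. The next smallest p-values in it belonged to the amino acid transporter genes Slc7a1 (log2 fold change 0.41, adjusted p = 0.314 by edgeR) and Slc7a11 (log2 fold change 1.06, adjusted p = 0.323 by edgeR), both higher at 35 mM without overlap. Slc7a11 rested on few counts, 13, 14 and 4 at 11.8 mM and 21, 18 and 21 at 35 mM. Among 15 other eIF2, eIF2B and kinase genes, edgeR called 0, with 1 at an unadjusted p under 0.05, and the smallest p was that of Dnajc3, an inhibitor of PERK (log2 fold change 0.31). Of 17 other serine, folate and methionine cycle genes, 11 were tested, with 0 called by edgeR and 1 at an unadjusted p under 0.05, Gcsh of the glycine cleavage system (log2 fold change -0.52). All 11 other cytosolic tRNA synthetase genes were tested, with 0 called and a median of 0.12. At an unadjusted p under 0.05 there was 1, Kars (log2 fold change 0.36). Of 17 mitochondrial tRNA synthetase genes 9 were tested, with 0 called, 0 at an unadjusted p under 0.05 and a median of -0.03. These 4 lists were run in edgeR only, and so was the ATF4-linked list apart from Pycr1 and Slc7a3.

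At 20 mM, a level the series describes as hyperglycemic, Phgdh, Nars and Psph lay wholly above the controls at 11.8 mM, while most phosphatase subunits and stress effectors had slightly lower means. Of 36 members, 0 were called by edgeR's quasi-likelihood test (0.185% of all genes were) and 0 by DESeq2, and 2 had an unadjusted p under 0.05, Phgdh and Nars, both higher, against 4.45% of all genes higher and 3.52% lower. The median log2 fold change was 0.08, against -0.00 for all genes, and 21 of 36 were above 0, against 49.8% of all genes. Libraries did not overlap for 4 of 36 members (11.1%), against 12.8% of all genes: Phgdh, Psph and Nars were higher at 20 mM, against 6.79% of all genes, and Atf5 was lower, against 6.04%. Without 11.8 mM replicate 3 the members' median was 0.012, and without 20 mM replicate 3 it was 0.029. The serine and folate genes had a median of 0.22, with 6 of 7 above 0, and the phosphatase subunits and effectors -0.14, with 2 of 7 above 0. All 18 acinar markers tested were above 0 at 20 against 11.8 mM, with a median of 0.39, and the acinar share was 1.45, 0.877 and 0.797% in the 3 libraries at 20 mM, against 0.559, 1.42 and 0.389% in those at 11.8 mM. All 9 macrophage and immune markers tested were below 0, with a median of -0.33. With the acinar share as a covariate the members' median was 0.072, and the part of the macrophages was not tested. This comparison and the one at 35 mM use the same 3 control libraries, so they are not independent. Among the other ATF4-linked genes 0 passed, with Pycr1 nearest at 0.71 and an adjusted p of 0.0573 (edgeR, 2 of 23 at an unadjusted p under 0.05). Of the other 4 lists of pathway genes edgeR also called 0, with 1 eIF2-related gene (Dnajc3), 1 folate-related gene (Gcsh) and 1 cytosolic synthetase gene (Hars) at an unadjusted p under 0.05.

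Between 35 and 20 mM, Shmt2 was the member with the smallest p-value, as given above, followed by Cebpg and Tars. Here edgeR called 0 of 36 members, against 0.0308% of all genes, and DESeq2 called 0. At an unadjusted p under 0.05 there were 2 higher (Shmt2 and Cebpg) and 1 lower (Tars), against 2.73% of all genes higher and 2.56% lower. Libraries did not overlap for 5 of 36 (13.9%), against 11.9% of all genes, with Shmt2, Cebpg, Yars and Ppp1r15b higher at 35 mM, against 6.15% of all genes, and Vldlr lower, against 5.76%. The count of 5 became 3 without the 2 sub-libraries that had many non-unique alignments. The median log2 fold change was 0.09, against -0.00 for all genes, and 21 of 36 members were above 0, against 49.8% of all genes. Without 20 mM replicate 3 that median was 0.017. Of the other pathway genes edgeR called 0, with 4 ATF4-linked genes higher (Slc7a3, Aldh1l2, Slc7a1 and Aldh18a1) and 2 mitochondrial synthetase genes lower (Tars2 and Lars2) at an unadjusted p under 0.05.

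A straight line over the 3 concentrations, fitted on the log scale, called 0 of 36 members by edgeR and 0 by DESeq2, against 0.493% of all genes. The members at an unadjusted p under 0.05 were 5 with a positive slope, Shmt2, Phgdh, Asns, Chac1 and Cbs, and 1 with a negative slope, Vldlr, against 5.1% of all genes with a positive and 4.58% with a negative slope. Expressed as the log2 change fitted over the 23.2 mM span, Shmt2 had 0.50 (95% interval 0.21 to 0.78), adjusted p = 0.140, and Phgdh 0.76 (95% interval 0.24 to 1.27), adjusted p = 0.270, both by edgeR. Asns had 0.38, Chac1 0.38 and Vldlr -0.50. The slopes of Slc7a3 (1.35, adjusted p = 0.00215) and Pycr1 (0.85, adjusted p = 0.0123) passed edgeR's test, the second of them not without replicate 2 (adjusted p = 0.0624) or replicate 3 (adjusted p = 0.0970) of 11.8 mM.

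Within a concentration, the median biological coefficient of variation, the spread between replicates beyond counting, was 0.136 over the members, against 0.155 for all genes tested. The members also had a higher median level, 21.9 against 11.9 CPM, and the part of level in this difference was not tested. At 11.8 mM, 24 of 36 members were above their group mean in replicate 1, 16 in replicate 2 and 13 in replicate 3. At 20 mM the counts were 18, 22 and 18, and at 35 mM they were 17, 26 and 12. Replicate 2 of 35 mM was thus the library in which the most members were high for its group, with Gpt2, Phgdh and Shmt2 among its high values, while Atf4 was lowest of all in replicate 3 of 35 mM. The acinar share was 1.27, 0.775 and 0.804% in the 3 libraries at 35 mM, against 0.559, 1.42 and 0.389% in those at 11.8 mM. With that share as a covariate, 0 members were called in any comparison.

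**Figure D5:**
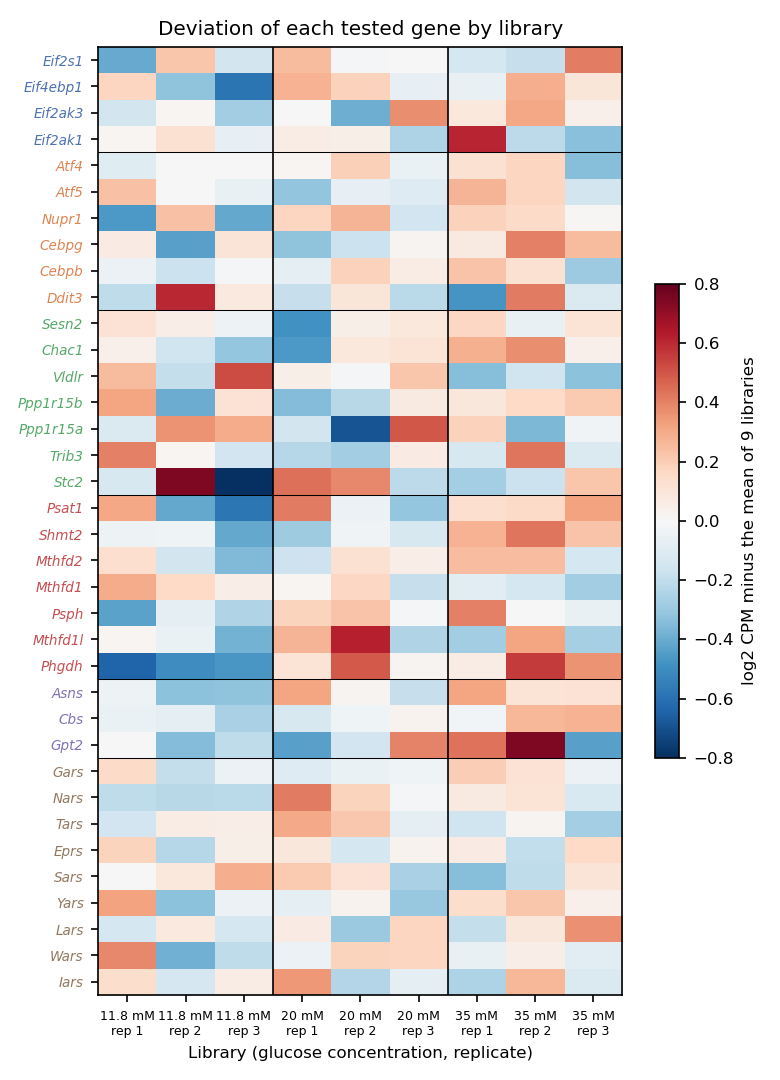
Log2 CPM of each of the 36 tested genes minus its mean over the 9 libraries (colour, red above and blue below), with genes in rows by role and libraries in columns by glucose concentration and replicate. Phgdh is below its mean in all 3 libraries at 11.8 mM and above it at 20 and 35 mM, whereas Ddit3 and Trib3 change colour within every concentration, and Atf4 within 20 and 35 mM.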

How the data were processed

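Per the labels' protocols, CEL-Seq2 libraries were made from purified RNA of cultured islets. The deposited values are raw read counts per gene and sub-library, and per the submitters' processing notes the tools were cutadapt, TopHat, HTSeq and DESeq2, with GRCm38.p4 as the genome. Which annotation and strand setting were used is not given in the sources used here. Counts were not collapsed by molecular identifier: the highest was 605402, above the 4096 possible identifiers, and 16 genes exceeded that number. Amplified reads are not independent molecules, so depth in reads can overstate the number of molecules counted. It does not speak to the spread between mice either.

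The 27 sub-libraries, 3 per sample, were summed to 9 libraries by the deposited sample sheet. In all, 30 columns of per-sample values in other tables had names that match no sample and were not used. Summary lines that name no gene, 19.6 to 29.9% of all counts of a library, and 92 spike-ins were left out. Gene counts were fitted with edgeR 4.0.16 in R 4.3.3 (TMM, filterByExpr, robust quasi-likelihood F-test, 1 mean per concentration, 6 residual degrees of freedom; the slope had 7), adjusted over all 9739 genes by Benjamini-Hochberg with a threshold of 0.05. The scripts were tested on simulated data. Intervals are 95% intervals of the fitted log2 fold change and cover the spread between libraries only. DESeq2 1.42.0 was an alternative. Others were another scaling, other filters, removal of the 20 most abundant genes, a replicate block, only the samples compared, an acinar covariate, and each library left out. Leaving out 2 sub-libraries and the alternatives for Slc7a3 and Pycr1 were chosen after seeing the data.

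The members, lists and marker genes were chosen with earlier results of these data known, so no list was given a test. Libraries are printed singly for 10 members set by name (Atf4, Ddit3, Trib3, Chac1, Asns, Phgdh, Psat1, Psph, Shmt2 and Mthfd2), for the 5 members with the smallest p in each comparison and for any gene called, and up to 4 genes of each other list could be named. Further members are named as examples of their role. An exon overlap with another gene affects 13 of the 39 members. Gene positions are from the GENCODE annotation of GRCm38.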

Additional observations from a re-analysis of the deposited data

How the results depend on the processing

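Under the 18 alternatives the count of called members was 0 at 20 against 11.8 mM, at 35 against 20 mM and for the slope, and 0 to 1 at 35 against 11.8 mM, where Psat1 passed without 11.8 mM replicate 1. With 1 library left out at a time, the members' median log2 fold change was 0.10 to 0.18 at 35 against 11.8 mM, 0.012 to 0.079 at 20 against 11.8 mM (lowest without 11.8 mM replicate 3, 0.029 without 20 mM replicate 3) and 0.017 to 0.099 at 35 against 20 mM (lowest without 20 mM replicate 3). Without 2 sub-libraries, the members without overlap at 35 against 20 mM numbered 3, against 5. Non-unique alignments were 39.5% of all counts in 1 of these sub-libraries, from 35 mM replicate 1, and 35.2% in the other, from 11.8 mM replicate 1. Whether the replicate numbers pair the samples is not known. Over all genes tested, deviations from the group mean in same-numbered libraries correlated at -0.138 to 0.0462, and 0 of 9 exceeded 0.1. Differently numbered libraries gave -0.155 to 0.155, with 3 of 18 over 0.1. Correlations this small cannot decide the question, because noise between libraries could hide a pairing. With the replicate block 0 members were called in any comparison and the median at 35 against 11.8 mM was 0.12.

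Some values changed sign, none of them called, and the cause was not tested. With 1 library left out, Atf4 ranged from -0.055 to 0.18 at 35 against 11.8 mM, from -0.14 to 0.094 at 35 against 20 mM and from -0.063 to 0.18 for the slope. Ddit3 ranged from -0.52 to 0.042, from -0.21 to 0.27 and from -0.52 to 0.059 in the same comparisons. Trib3 ranged from -0.24 to 0.15 at 35 against 11.8 mM and from -0.23 to 0.19 for the slope. At 20 against 11.8 mM, Chac1 ranged from -0.021 to 0.23, Psat1 from -0.0022 to 0.54 and Shmt2 from -0.11 to 0.071. At 35 against 20 mM, Phgdh ranged from -0.011 to 0.28 and Psph from -0.16 to 0.085. With the acinar covariate Trib3 was 0.012 at 35 against 11.8 mM, Shmt2 -0.023 at 20 against 11.8 mM and Psph 0.015 at 35 against 20 mM. Shmt2 at 20 against 11.8 mM was -0.0055 under the 10 CPM filter and -0.0035 without the 2 sub-libraries, and the slope of Trib3 over log2 glucose was -0.027. At 20 against 11.8 mM Pycr1 passed under 4 alternatives (adjusted p 0.0248 to 0.0444 by edgeR or DESeq2). Members such as Ddit3, Trib3 and Stc2, with few counts, allow only wide intervals.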
